A study of Populus alba x Populus glandulosa with 18 samples.

Results

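The *CLE* genes encode short secreted peptides named after CLAVATA3 and EMBRYO SURROUNDING REGION. They were taken from the deposited expression table by 1 rule, namely a description that reads CLAVATA3/ESR-RELATED or a gene symbol of the form CLE with a number, or CLV3. The rule used no measured value. It found 33 of 42950 gene models, which carry 18 symbols and lie on 12 chromosomes. No member carries the symbol CLV3. The table gives Arabidopsis symbols to poplar gene models, and no test here bears on the assignment.

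CLE peptides are cut from a longer precursor, modified, secreted and bound by leucine-rich repeat receptor kinases of neighbouring cells. In Arabidopsis, *CLE41* and *CLE44* encode the tracheary element differentiation inhibitory factor (TDIF). This peptide is made in the phloem and is perceived by the receptor PXY in the cambium, where it promotes cell division through *WOX4* and holds back xylem differentiation. Other members act in the shoot apex, in the protophloem or in roots.

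The libraries came from the hybrid poplar 84K (Populus alba x Populus glandulosa), grown for 2 months in a greenhouse and not treated. Wild-type 84K was compared with *PagDET2*-OE lines, which carry a steroid 5-alpha-reductase gene of brassinosteroid synthesis under the constitutive 35S promoter. Each genotype was sampled in 3 domains with 3 replicates, which gave 6 groups and 18 libraries. The primary stem (PS, labelled shoot apical meristem) pools the apex with the elongating internodes below it. The bark (BA, labelled cambium) holds differentiating phloem and cambium of older internodes, and the xylem (XY) is the tissue scraped from the wood surface. Separate trees are given as the material by the study's text, but the labels tie no library to a tree or to a transgenic line, so p-values measure the spread between these libraries and a spread between lines cannot be told apart from one between trees. In bulk tissue, fewer cells of a type and less RNA per cell cannot be told apart.

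Library totals ranged from 7983668 to 12052409 fragments, so that 3 counts, taken as the detection floor, stand for a level of 0.232 to 0.479 CPM in a library (fragment counts scaled to a common library size with TMM factors), and of 0.345 to 0.479 CPM in XY. The *DET2* copy Potri.016G110600 had 4.39 to 8.89 CPM in the 84K libraries and 1285 to 2922 CPM in the *PagDET2*-OE libraries. Every *PagDET2*-OE library thus matched its label. Markers of secondary wall xylem (19 genes such as *CESA4*, *CESA7*, *CESA8* and *XCP1*) summed to 19791 to 20765 CPM in XY of 84K and to 867 to 942 CPM in BA. Phloem markers were less clear-cut. Of the 7 phloem genes, 6 were lower in XY than in BA, and both main *APL* copies fell from 63.6 ± 1.3 and 72.5 ± 5.9 CPM in BA to 0.35 ± 0.36 and 0.10 ± 0.17 CPM in XY (SD, n = 3), but the *SUC2* copy Potri.019G085800 was at 1133 ± 20 CPM in XY. Cambium markers (11 genes) were mixed too. In 84K they summed to 1994 to 2075 CPM in BA, labelled cambium, and to more in XY (2480 to 2596 CPM). Of the 11, 7 were lower in XY than in BA and 2 were higher. The defining apex gene *WUS* was at or near 0 in PS, where its copies had 0 counts in 84K, while 2 *STM* copies were expressed in all 3 domains. Of the 10 genes in the shoot apex list, 6 had counts in each PS library of 84K, 4 to 5 in BA and 3 to 4 in XY. Their sum was lower in PS (92.3 to 101 CPM) than in BA (122 to 126 CPM). The label shoot apical meristem is thus not borne out by *WUS*, but the list as a whole was mixed. The domain is called PS here, as in the study's text.

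Of the 33 *CLE* genes, 23 had at least 1 count in any library and 10 had none. Among all gene models, 32792 had counts and 10158 had none. The silent members were all 3 copies of *CLE1*, all 3 of *CLE4*, both of *CLE5*, 1 of the 2 *CLE6* copies and 1 of the 2 *CLE9* copies. In Arabidopsis, *CLE1* and *CLE4* are induced in nitrogen-starved roots, and no root was sampled here. The silent members also had shorter gene models, with a median span of 256.5 bp against 566 bp for the members with counts. The part of either in the absence of counts was not tested. In any library of a domain, 22 members were counted in PS, 19 in BA and 17 in XY, and 14 members were counted in all 3 domains. In 84K alone, 22 members had counts in at least 1 library of PS, 17 in BA and 16 in XY. Of the *PagDET2*-OE libraries, those of PS held 21 members, those of BA 19 and those of XY 17. Counts in all 3 libraries of a group were found for 19, 14 and 12 members in 84K and for 19, 13 and 14 in *PagDET2*-OE. Of the counted members, 4 had no more than 20 counts over all 18 libraries.

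Many members are paired copies. Of the 18 symbols, 5 have 1 copy, 11 have 2 and 2 have 3. The symbols *CLE9*, *CLE13*, *CLE16*, *CLE26* and *CLE45* each have 1 copy on chromosome 8 and 1 on chromosome 10. No member overlapped another gene model. Within 30000 bp of another member lay 8 genes, of which 7 had no counts. How reads that match several copies were assigned is not given in the sources used here, so a value of 1 copy may hold reads of the other.

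XY differed from PS and BA in the members that made up most of the *CLE* counts. *CLE41* and *CLE44* dominated PS and BA, while *CLE13* dominated XY. In 84K, *CLE41* and *CLE44* copies held 78.6 ± 1.2% of all *CLE* counts in PS and 76.1 ± 1.3% in BA, but 19.4 ± 2.4% in XY (SD, n = 3). *CLE13* and *CLE20* copies held 1.41 ± 0.58% of the counts in PS, 0.251 ± 0.012% in BA and 66.9 ± 1.0% in XY. All members together reached 123 ± 6.5 CPM in PS, 387 ± 17 CPM in BA and 26.1 ± 2.2 CPM in XY, each as a share of the library total.

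**Figure D1:**
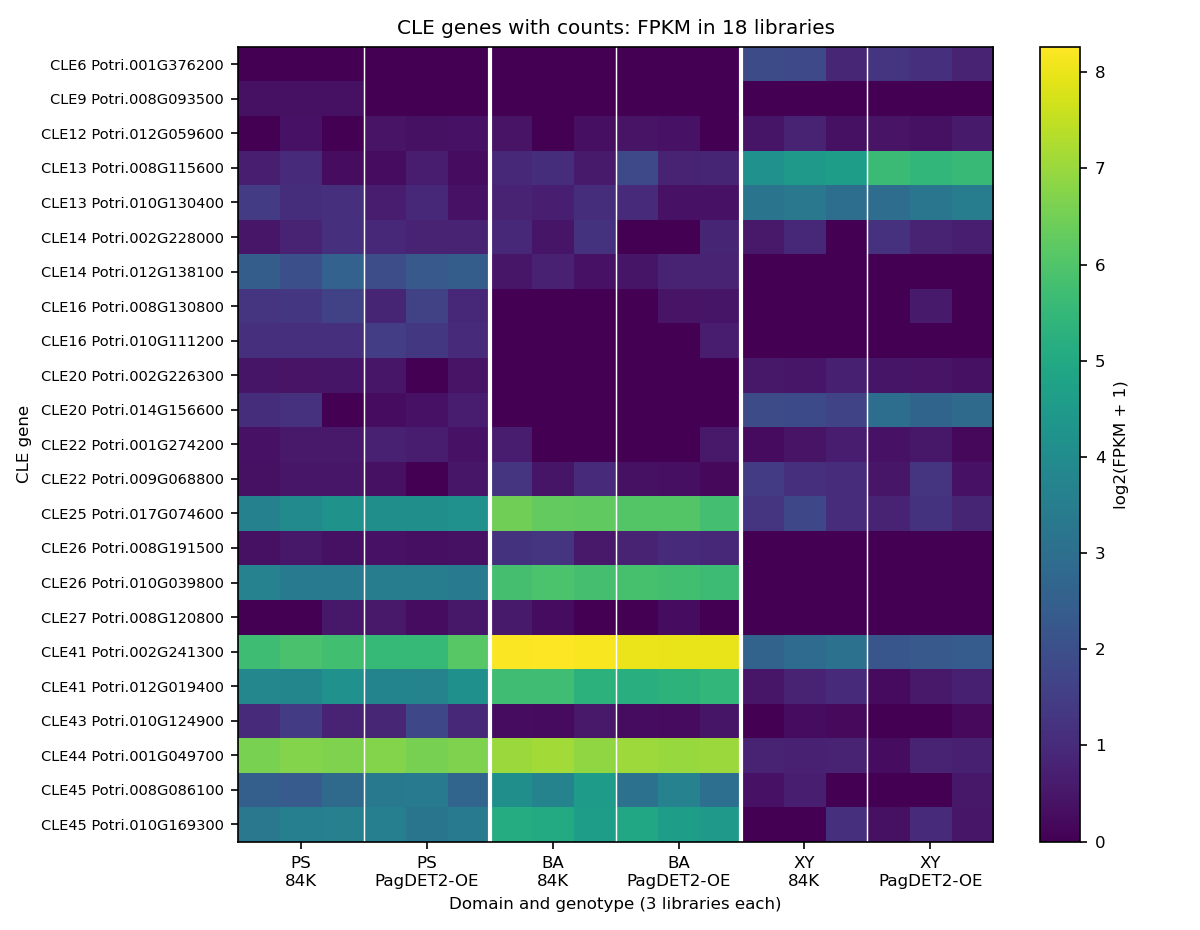
Levels of the 23 *CLE* genes with counts in the 18 libraries, as log2(FPKM + 1) in colour, with genes in rows and libraries in columns grouped by domain and genotype. *CLE41*, *CLE44*, *CLE25*, *CLE26* and *CLE45* copies are brighter in BA than in XY, whereas both *CLE13* copies are brightest in XY.

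Levels of different genes were compared as FPKM, which the authors computed per gene length. In BA of 84K the order was *CLE41* Potri.002G241300 (297 ± 8 FPKM), *CLE44* Potri.001G049700 (128 ± 11), *CLE25* Potri.017G074600 (79.6 ± 7.9), *CLE26* Potri.010G039800 (57.5 ± 2.4), *CLE41* Potri.012G019400 (47.4 ± 8.0), *CLE45* Potri.010G169300 (29.7 ± 5.8) and *CLE45* Potri.008G086100 (17.1 ± 5.5). The libraries of neighbouring genes in this order did not overlap. All other members were at a mean of 1.07 FPKM or less in BA.

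In PS of 84K, *CLE44* led at 101 ± 4 FPKM, ahead of *CLE41* Potri.002G241300 at 54.2 ± 4.1 FPKM. *CLE25* followed at 14.5 ± 3.2 FPKM and overlapped with *CLE41* Potri.012G019400 at 14.4 ± 2.4 FPKM. *CLE26* Potri.010G039800 (10.3 ± 1.1 FPKM) overlapped with *CLE45* Potri.010G169300 (10.2 ± 1.2 FPKM), and *CLE45* Potri.008G086100 (5.03 ± 1.14 FPKM) overlapped with *CLE14* Potri.012G138100 (4.19 ± 1.02 FPKM). The lead of *CLE44* over *CLE41* in PS was thus the reverse of the order in BA.

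In XY of 84K, *CLE13* Potri.008G115600 was highest at 20.5 ± 3.3 FPKM. The other *CLE13* copy, Potri.010G130400, was at 8.04 ± 1.0 FPKM and overlapped with *CLE41* Potri.002G241300 at 6.36 ± 1.10 FPKM. *CLE20* Potri.014G156600 (2.56 ± 0.30 FPKM) and *CLE6* Potri.001G376200 (2.05 ± 1.03 FPKM) came next and overlapped. *CLE6* was counted in XY alone, at 7, 7 and 3 counts in 84K and 4, 4 and 3 in *PagDET2*-OE.

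**Figure D2:**
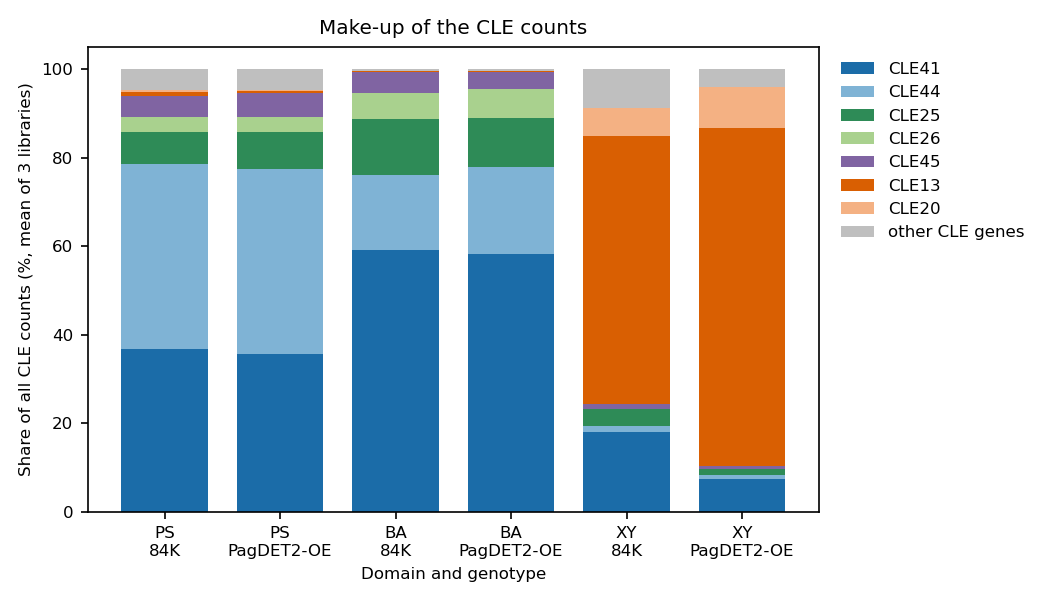
Share of all *CLE* counts (%, y axis) taken by each symbol in the 6 groups (x axis), as the mean of 3 libraries. *CLE41* and *CLE44* together hold over 76% in PS and BA of both genotypes, and *CLE13* and *CLE20* hold 66.9% in XY of 84K and 85.5% in XY of *PagDET2*-OE.

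The wild-type domains were compared to place each member in the stem. They were tested by quasi-likelihood in edgeR, p-values were adjusted after Benjamini and Hochberg over all genes tested, and a gene was called at an adjusted p of at most 0.05. With counts high enough for the test were 11 of the 33 members. A member passed this filter if it was high in any domain, and most genes of the stem differed between domains, so the counts of called members are given with the share over all genes and nothing is read from them.

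Between XY and BA all 11 tested members were called, 8 lower and 3 higher in XY, where 71.9% of all 24986 tested genes were called (38.3% lower and 33.6% higher). The TDIF genes were far lower in XY. *CLE44* differed by -6.88 (SE 0.17) on the log2 scale, and the *CLE41* copies Potri.002G241300 and Potri.012G019400 by -4.95 (SE 0.10) and -5.35 (SE 0.26). *CLE25* (-5.03, SE 0.22) and the *CLE45* copies Potri.008G086100 (-5.17, SE 0.54) and Potri.010G169300 (-5.33, SE 0.45), which in Arabidopsis is a protophloem peptide gene, had the same direction. *CLE26* Potri.010G039800 had 0 counts in every XY library and was at least 45.9-fold lower there, on the TMM scale and against a floor of 3 counts per library. Higher in XY were *CLE13* Potri.008G115600 (5.17, SE 0.31) and *CLE13* Potri.010G130400 (3.78, SE 0.32). *CLE20* Potri.014G156600 had 0 counts in BA and was at least 7.09-fold higher in XY by the same floor and scale. *CLE14* Potri.012G138100 was also called lower (adjusted p = 0.0232), from 2 to 4 counts in BA and 0 in XY, and lost its call without replicate 2 of BA (adjusted p = 0.0643) or without replicate 2 or 3 of XY (0.0522 and 0.0564).

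Between PS and BA, 9 of 11 tested members were called, 7 lower and 2 higher in PS, beside 67.9% of all genes (33.2% lower and 34.8% higher). *CLE41* Potri.002G241300, *CLE25* and *CLE26* Potri.010G039800 were lower in PS by similar amounts (-2.46, -2.46 and -2.48; SE 0.08, 0.15 and 0.16). *CLE41* Potri.012G019400 (-1.72, SE 0.16) and the *CLE45* copies (-1.77, SE 0.31 for Potri.008G086100 and -1.53, SE 0.25 for Potri.010G169300) were lower too. *CLE44* stood apart, with a difference of only -0.36 (SE 0.08, adjusted p = 0.000784). *CLE14* Potri.012G138100, whose Arabidopsis namesake acts on the root meristem under low phosphate, was higher in PS by 3.07 (SE 0.48). *CLE20* was called higher in PS at 6, 7 and 0 counts against 0 in BA, so that 1 PS library did not show it. Both *CLE13* copies missed the threshold (adjusted p = 0.527 and 0.204).

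Between PS and XY all 11 tested members were called, 8 higher and 3 lower in PS, beside 78.7% of all genes (42.1% higher and 36.6% lower). The 3 that were lower in PS were the *CLE13* copies (-5.62, SE 0.33 for Potri.008G115600 and -3.14, SE 0.30 for Potri.010G130400) and *CLE20* (-2.22, SE 0.57). XY libraries had normalization factors of 0.723 to 0.786 against 1.14 to 1.17 in the other domains. The median log2 difference over all tested genes between XY and BA was -0.08 with TMM scaling, -0.26 with upper-quartile scaling and -0.64 on deposited FPKM. No called domain difference of a member turned its direction under these scalings.

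Among the 12 counted members too low for the domain tests, some were seen mainly in 1 domain. Both *CLE16* copies, whose Arabidopsis namesake acts in the shoot meristem, had 7 to 11 counts in each PS library of 84K and 0 in all its BA and XY libraries. They were at least 2.98-fold and 2.75-fold higher in PS than in BA for Potri.008G130800 and Potri.010G111200, on the same scale and floor. *CLE43* Potri.010G124900 had 4 to 9 counts in PS of 84K and at most 3 elsewhere in 84K. *CLE26* Potri.008G191500 had 4 to 10 counts in BA and 0 in XY. *CLE9* Potri.008G093500 had 1 count in each PS library of 84K and 0 in all 15 other libraries, which is under the floor. The remaining low members (*CLE12*, *CLE27*, the second copies of *CLE14* and *CLE20*, and both *CLE22* copies) had 0 to 11 counts per library.

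The genotype comparison asks which *CLE* genes moved when *PagDET2* was over-expressed. In XY the *CLE13* copy Potri.008G115600 and *CLE20* Potri.014G156600 were up-regulated more than 2-fold. In BA, *CLE41* Potri.002G241300, *CLE25* and *CLE45* Potri.008G086100 were lower by less than 2-fold. In PS no member passed the threshold. Each domain was fitted on its own 6 libraries.

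**Figure D3:**
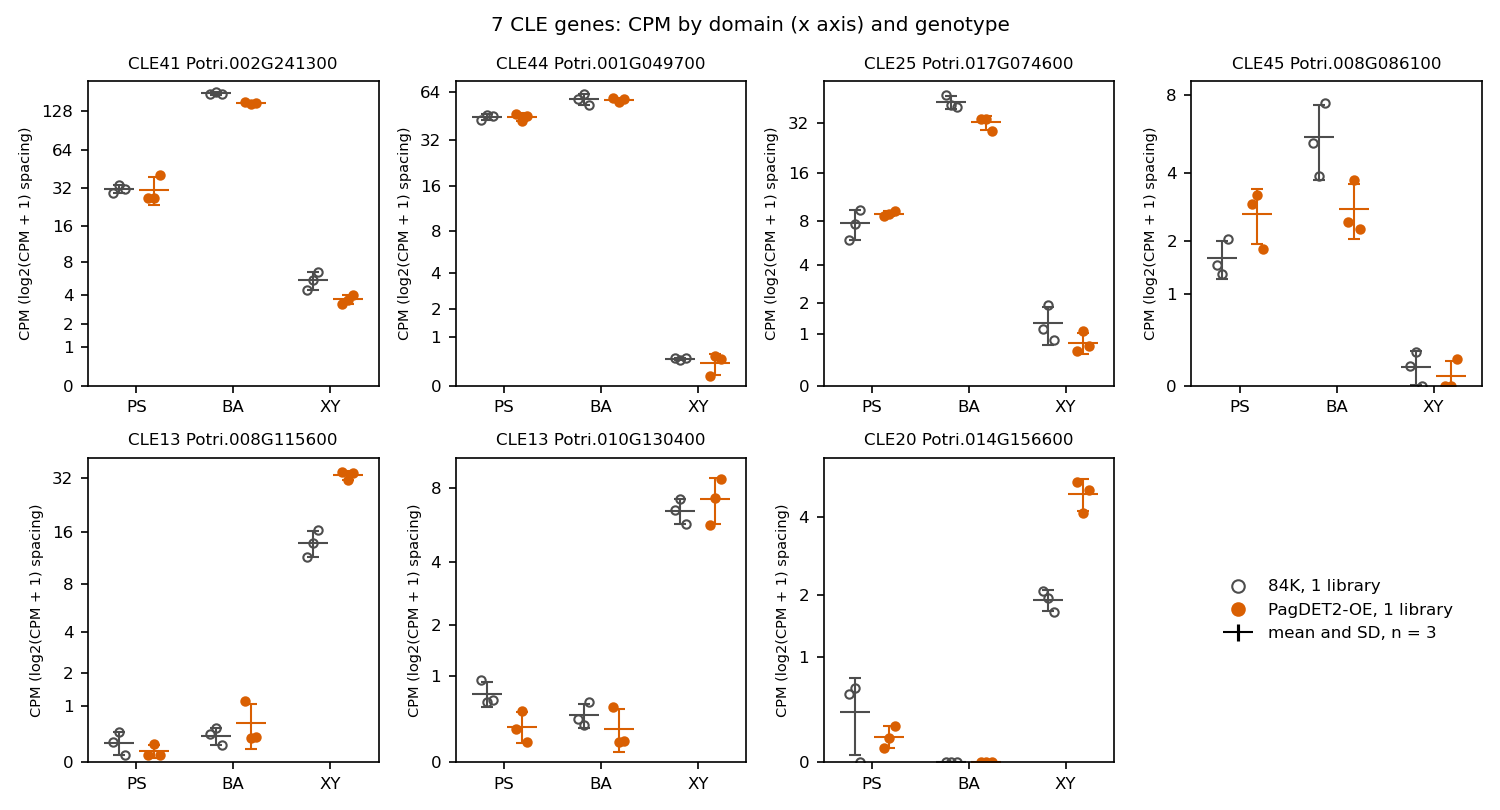
CPM after TMM scaling (y axis, spaced as log2(CPM + 1)) of 7 *CLE* genes by domain (x axis), for 84K (open grey) and *PagDET2*-OE (filled orange). Points are libraries, and bars give the mean and SD (n = 3). *CLE13* Potri.008G115600 and *CLE20* are higher in all 3 *PagDET2*-OE libraries of XY, and *CLE41*, *CLE25* and *CLE45* Potri.008G086100 are lower in all 3 *PagDET2*-OE libraries of BA.

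In XY, 4 members were tested, and 2 were called, both higher, beside 19.4% of all 21273 tested genes. Both were also differentially expressed genes (DEGs, a change of at least 2-fold in addition), beside 1.15% of all genes that were DEGs with a higher level. The median log2 fold change was 0.68 over the 4 members and -0.00 over all genes tested (-0.0046).

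*CLE13* Potri.008G115600 lies on chromosome 8 from 7401237 to 7401762. It stood at 11.5, 13.8 and 16.3 CPM in the 84K libraries of XY and at 34.3, 31.0 and 34.2 CPM in the *PagDET2*-OE libraries. All 3 *PagDET2*-OE libraries were above all 3 of 84K. Its log2 fold change was 1.22 (SE 0.13, 95% CI 0.95 to 1.49, edgeR adjusted p = 2.66e-06), and it stayed called in all 17 alternatives (1.11 to 1.36). In PS and BA the gene had 1 to 12 counts per library and was not tested for genotype.

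The second *CLE13* copy, Potri.010G130400 on chromosome 10 from 14558019 to 14558651, did not pass. It stood at 6.55, 7.26 and 5.76 CPM in 84K and 5.72, 7.32 and 8.73 CPM in *PagDET2*-OE, and the groups overlapped. This gave a log2 fold change of 0.14 (95% CI -0.30 to 0.58, adjusted p = 0.685). The FPKM ratio of the first copy to the second was 2.11, 2.28 and 3.41 in the 84K libraries of XY and 7.22, 5.10 and 4.72 in those of *PagDET2*-OE, without overlap.

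*CLE20* Potri.014G156600 (chromosome 14, 12213368 to 12213944) was counted 13, 13 and 14 times in 84K and 36, 31 and 43 times in *PagDET2*-OE, that is 2.08, 1.93 and 1.68 CPM against 5.28, 4.13 and 4.94 CPM. The groups did not overlap. Its increase on the log2 scale was 1.31 (SE 0.28, 95% CI 0.71 to 1.91, adjusted p = 0.00315). At a minimum count of 30 the gene was not tested. It was called in the other 16 alternatives (0.99 to 1.41). Its second copy, Potri.002G226300, had 1 or 2 counts in every XY library.

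*CLE41* Potri.002G241300 (chromosome 2, 23377846 to 23378515) had the opposite sign in XY, at 4.47, 5.48 and 6.48 CPM in 84K and 3.23, 3.59 and 4.02 CPM in *PagDET2*-OE. The groups did not overlap, but the gene missed the threshold (-0.63, SE 0.24, adjusted p = 0.0783). It passed with limma on deposited FPKM (adjusted p = 0.03 and 0.0297), in a fit of all 18 libraries (0.0499) and with replicate 3 as a batch (0.0432).

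With these changes, *CLE13* and *CLE20* copies held 85.5 ± 3.1% of the *CLE* counts in XY of *PagDET2*-OE, and *CLE41* and *CLE44* copies 8.21 ± 1.22% (SD, n = 3). The family as a whole reached 39.0 ± 1.0 CPM there, against 26.1 ± 2.2 CPM in 84K. Markers of secondary wall xylem also moved in XY, with 8 of 16 tested genes higher and a summed level of 22352 to 23641 CPM against 19791 to 20765 CPM in 84K. The phloem markers summed to 1008 to 1047 CPM against 1118 to 1157 CPM, nearly all from the *SUC2* copy named above, the 1 of 7 that could be tested, which was called lower. The cambium markers summed to 2364 to 2477 CPM against 2480 to 2596 CPM, with 1 of 10 tested genes higher and 2 lower. The part of these shifts in the *CLE* values was not tested.

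In BA, 7 members were tested and 3 were called, all lower, beside 11.5% of all 23651 tested genes called and 5.34% called lower. None was a DEG, beside 0.351% of all genes that were DEGs with a lower level. The median log2 fold change was -0.25 over the 7 members and 0.00 over all genes tested (0.0002).

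*CLE41* Potri.002G241300, the highest member in BA, stood at 171, 179.5 and 172 CPM in 84K and at 148, 144 and 148 CPM in *PagDET2*-OE. The groups did not overlap. Its log2 fold change was -0.23 (SE 0.05, 95% CI -0.35 to -0.12, adjusted p = 0.0107). The call was lost in the fit of all 18 libraries (adjusted p = 0.129) and without replicate 2 of 84K (0.0689) or replicate 2 of *PagDET2*-OE (0.0617). The other *CLE41* copy, Potri.012G019400, did not pass (-0.26, SE 0.12, adjusted p = 0.211), though it did without replicate 3 of 84K (-0.40, adjusted p = 0.0317).

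*CLE44* Potri.001G049700 (chromosome 1, 3782095 to 3782606), the third TDIF gene, stood at 57.5, 62.0 and 52.9 CPM in 84K and at 58.3, 55.5 and 57.7 CPM in *PagDET2*-OE. The groups overlapped, and the log2 fold change was 0.01 with a 95% CI of -0.15 to 0.17. In PS it stood at 42.8, 46.2 and 45.1 CPM against 46.8, 41.85 and 45.0 CPM (-0.01, 95% CI -0.16 to 0.15). Both intervals held 0, and that in PS was the narrowest of the 8 members tested there. In XY it was at the floor, with 1 to 4 counts per library.

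*CLE25* Potri.017G074600 (chromosome 17, 8704219 to 8705789), whose Arabidopsis namesake is expressed in the vasculature and signals water shortage from root to shoot, stood at 46.9, 40.6 and 39.7 CPM in BA of 84K and at 33.9, 34.0 and 28.7 CPM in *PagDET2*-OE. All *PagDET2*-OE libraries were lower. Its log2 fold change was -0.38 (SE 0.09, 95% CI -0.58 to -0.18, adjusted p = 0.0176). The call was lost with limma on FPKM (adjusted p = 0.0584 and 0.0544) and without replicate 1 of 84K (-0.31, 0.0907). In PS the gene stood at 5.98, 7.65 and 9.40 CPM against 8.64, 8.78 and 9.27 CPM and missed the threshold (0.21, adjusted p = 0.417).

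*CLE45* Potri.008G086100 (chromosome 8, 5409682 to 5410256) stood at 5.26, 3.90 and 7.50 CPM in BA of 84K and at 2.45, 3.73 and 2.29 CPM in *PagDET2*-OE. The groups did not overlap, though the lowest 84K library and the highest *PagDET2*-OE library were close. The log2 fold change was -0.97 (SE 0.27, 95% CI -1.55 to -0.38, adjusted p = 0.0361). This call was the least steady of the 3. It was lost with DESeq2 (adjusted p = 0.066), without robust estimation (0.06), with limma (0.0745 and 0.071), and without replicate 1 or 3 of 84K (0.0943 and 0.123) or replicate 1 or 3 of *PagDET2*-OE (0.122 and 0.0909). The second copy, Potri.010G169300, was not called (-0.25, 95% CI -0.63 to 0.13, adjusted p = 0.407).

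*CLE26* Potri.010G039800 was not called either (-0.11, 95% CI -0.33 to 0.10, adjusted p = 0.511). The whole family reached 334 ± 8 CPM in BA of *PagDET2*-OE against 387 ± 17 CPM in 84K, while the make-up stayed close, with 77.9 ± 1.7% of counts from *CLE41* and *CLE44* copies. Phloem markers, the tissue in which *CLE41* and *CLE44* are made in Arabidopsis, summed to 1176 to 1196 CPM in *PagDET2*-OE and 1161 to 1194 CPM in 84K, with 2 of 7 genes higher and 1 lower. The lower one was *SUC2* Potri.013G115200, a sucrose transporter gene of companion cells in Arabidopsis, at 217 ± 7 CPM in 84K and 109 ± 0.5 CPM in *PagDET2*-OE. The 2 higher were the other *SUC2* copy (log2 fold change 0.19), which also had a high level in XY, and an *APL* copy (0.24). These genes moved in opposite directions, so the near-equal sums do not show whether the phloem changed. Markers of secondary wall xylem were lower in BA of *PagDET2*-OE, with 7 of 13 tested genes called lower and a sum of 613 to 668 CPM against 867 to 942 CPM. The part of these shifts in the *CLE* values of BA was not tested.

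**Figure D4:**
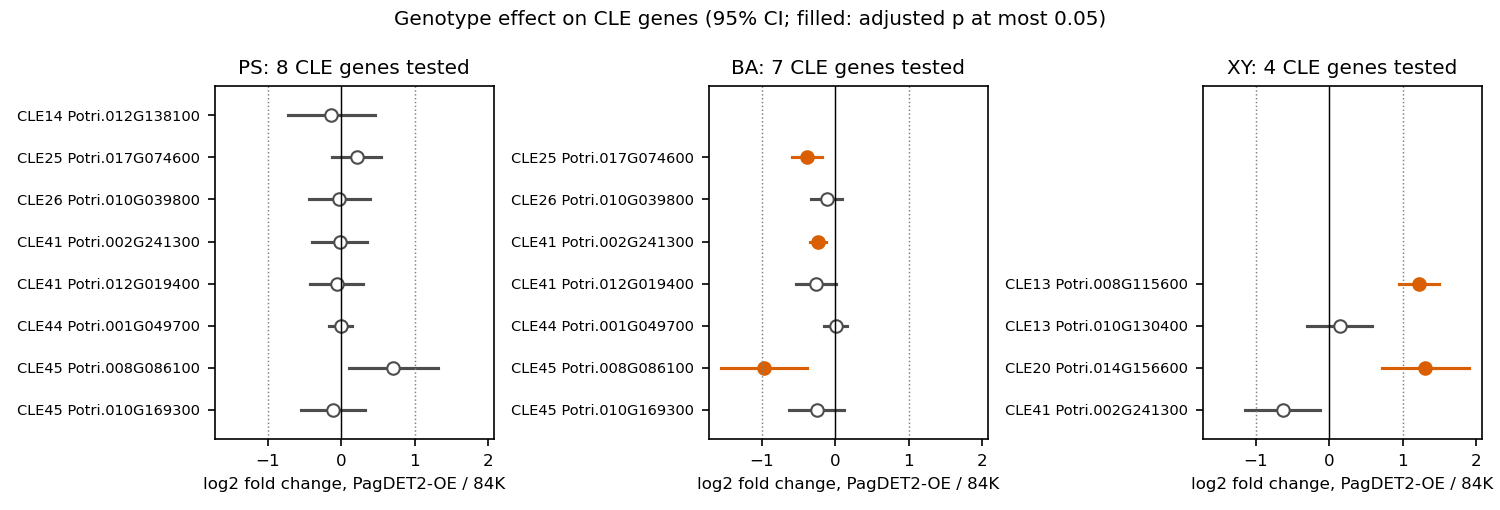
Log2 fold change of *PagDET2*-OE against 84K (x axis, point with 95% CI) for each tested *CLE* gene (y axis) in PS, BA and XY, with filled orange points for an adjusted p of at most 0.05 and dotted lines at a change of 2-fold. In XY *CLE13* Potri.008G115600 (1.22) and *CLE20* (1.31) lie to the right, in BA *CLE41*, *CLE25* and *CLE45* lie to the left, and in PS all 8 points are open.

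In PS, 8 members were tested and 0 were called by edgeR, beside 15.0% of all 23971 tested genes. At an unadjusted p under 0.05 there was 1, beside 28.6% of all genes, and DESeq2 and limma called 0. That member was *CLE45* Potri.008G086100. It stood at 1.49, 1.33 and 2.05 CPM in 84K and at 2.95, 3.24 and 1.82 CPM in *PagDET2*-OE, so that 2 of 3 *PagDET2*-OE libraries were above all of 84K and replicate 3 was not. The log2 fold change was 0.71 (SE 0.28, adjusted p = 0.108), and without replicate 3 of *PagDET2*-OE it was 0.93 and passed (adjusted p = 0.0327). *CLE41* Potri.002G241300 was at 29.3, 34.0 and 31.2 CPM against 26.7, 26.4 and 40.2 CPM (-0.02, 95% CI -0.39 to 0.35). The other 6 ranged from -0.14 (*CLE14* Potri.012G138100) to 0.21 (*CLE25*). Phloem markers in PS summed to 67.7 to 73.3 CPM in 84K and 54.7 to 59.7 CPM in *PagDET2*-OE, with 1 of 6 tested genes called lower, and their part in the *CLE* values was not tested.

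Whether a genotype effect differed between domains was tested as an interaction over all 18 libraries, which took 12 members. A member with 0 counts in every library of a domain has no genotype effect there and could not be called for that domain by edgeR. This left 11 members for BA against PS, 9 for XY against BA and 10 for XY against PS. Between BA and PS, 1 member was called, *CLE45* Potri.008G086100, beside 9.27% of all 25726 tested genes called and 4.53% called in the same direction. Its effect in BA minus that in PS was -1.69 (SE 0.45, 95% CI -2.62 to -0.76, adjusted p = 0.0179), from a log2 fold change of -0.97 in BA and 0.71 in PS. The call was lost with limma on log2(FPKM + 0.1) (adjusted p = 0.359) and without replicate 1 (0.286) or replicate 2 (0.107) of every group. *CLE25* came next (-0.61, 95% CI -1.02 to -0.20, adjusted p = 0.0551).

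Between XY and BA 0 of these 9 members were called by edgeR, beside 13.3% of all genes, and *CLE14* Potri.012G138100, *CLE20* Potri.014G156600 and *CLE26* Potri.010G039800 had a domain at 0. At an unadjusted p under 0.05 there were 0 (26.9% of all genes), and DESeq2 called 0. Limma on log2(FPKM + 1) called none of the 9 but did call *CLE20* (0.99, adjusted p = 0.045). With 0 counts of *CLE20* in BA, that call rests on its change in XY alone. Between XY and PS 0 of the 10 were called, beside 10.1% of all genes, with 5 at an unadjusted p under 0.05 (23.7% of all genes), 0 by DESeq2 and 2 by limma on log2(FPKM + 1). The largest of these were *CLE20* (2.40, 95% CI 0.62 to 4.18, adjusted p = 0.0805) and *CLE13* Potri.008G115600 (2.04, 95% CI 0.42 to 3.67, adjusted p = 0.103). The rise of both genes in XY is thus not shown to differ from their genotype effect in PS, where they had 0 to 7 counts per library. For *CLE13* Potri.008G115600 the effect in XY minus that in BA was 0.59 (95% CI -0.61 to 1.78, adjusted p = 0.571), and for *CLE20*, with 0 counts in BA, there was none to compare.

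The other genes of the pathway were taken from a list of 64 receptors, co-receptors, processing enzymes, transducers and transcription factors. In PS 10 of 53 tested genes were called lower and 0 higher, where 1653 of all 23971 tested genes were lower and 1937 higher (15.0% called). In BA 5 were lower and 4 higher of 51, where 1263 of all 23651 genes were lower and 1465 higher (11.5% called). In XY 12 were lower and 1 higher of 50, where 1986 of all 21273 genes were lower and 2136 higher (19.4% called). The medians of the list were -0.10, -0.03 and -0.14 on the log2 scale, beside 0.00, 0.00 and -0.00 over all genes tested (0.0013, 0.0002 and -0.0046).

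Among the 19 receptors, all tested in PS, 7 were lower and 0 higher there, beside the 1653 lower genes of 23971 in all. *HSL1* Potri.017G016600, a receptor kinase that binds CLE9 and CLE10 in Arabidopsis, fell from 15.5 ± 2.6 to 7.99 ± 0.47 CPM (-0.96, SE 0.14, adjusted p = 0.000235). *CLV1* Potri.005G241500, the receptor of CLV3 in Arabidopsis, fell by 0.55 (SE 0.10) on the log2 scale. *HSL1* Potri.007G135400 (-0.34, SE 0.10) and the TDIF receptor *PXY* Potri.001G126100 (-0.29, SE 0.05, from 125 ± 2 to 103 ± 3 CPM) followed. *HSL1* Potri.007G135400 lost its call in 10 of 17 alternatives, with an adjusted p of up to 0.163.

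In BA 2 receptors were called higher and 2 lower of 16 tested, beside 11.5% of all genes called, and these 4 differed by 0.26 or less on the log2 scale. For the effect in BA minus that in PS, 2 of 19 receptors were called, both higher. Beside them, 9.27% of all 25726 tested genes were called, 1219 of them higher. For XY minus BA and for XY minus PS, 4 of 19 were called in each, all lower, beside 13.3% and 10.1% of all genes. Of the 4 receptors called within BA, *CLV1* Potri.005G241500 was at 276 ± 12 CPM in 84K and 312 ± 3 CPM in *PagDET2*-OE (0.19, SE 0.05). *BAM3* Potri.001G073600, the receptor of CLE45 in the Arabidopsis protophloem, rose by 0.20 (SE 0.06). *RPK2* Potri.017G094400 (-0.26, SE 0.07) and *BAM1* Potri.007G009200 (-0.18, SE 0.04) were lower. Each of the 4 lost its call in 4 to 10 of 17 alternatives (adjusted p up to 0.0748 for *RPK2*, 0.0817 for *BAM1*, 0.141 for *CLV1* and 0.153 for *BAM3*). Neither *PXY* copy was called in BA.

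In XY, 6 of 16 receptors were lower and 0 higher, beside 1986 lower genes of 21273 in all. *CLV1* Potri.005G241500 was counted 9, 16 and 13 times in 84K and 2, 3 and 3 times in *PagDET2*-OE, where it was thus at the floor. The ratio of the summed counts, *PagDET2*-OE over 84K, was 0.195 with a counting interval of 0.0786 to 0.425 (95%, exact binomial). That interval leaves out the spread between libraries. The fitted log2 fold change of *CLV1* was -2.33 (SE 0.52, edgeR adjusted p = 0.00385). *CLV1* was tested in only 14 of the 17 alternatives and was called in each of these (adjusted p up to 0.0415). It was the only receptor beside *RPK2* Potri.014G144600 (-1.35, SE 0.37) to pass 2-fold. *BAM3* Potri.001G073600 (-0.79, SE 0.22) and *RPK2* Potri.017G094400 (-0.53, SE 0.10) were also lower. In 6 of 16 alternatives *RPK2* Potri.014G144600 lost its call, and *BAM3* in 5 of 17 (adjusted p up to 0.106 and 0.128). In 84K the same *CLV1* gene was 276 ± 12 CPM in BA against 1.79 ± 0.51 CPM in XY (-7.25, SE 0.13). *PXY* Potri.001G126100, in contrast, was higher in XY than in BA (1.39, SE 0.05), and *PXY* Potri.003G107600 was at the same level within a 95% CI of -0.08 to 0.16.

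Both *CRN* pseudokinases and all 3 processing genes (*SOL1* copies and *XEG113*) missed the threshold in every domain. Among the transducers, the brassinosteroid transcription factor *BZR1* Potri.005G126400 was lower in PS, BA and XY (-0.28, -0.27 and -0.32; SE 0.08, 0.06 and 0.08). It lost its call in 6, 3 and 2 of 17 alternatives. The GSK3 kinase *BIN2*, which TDIF signalling activates in Arabidopsis, was lower at Potri.004G059000 in BA (-0.21, SE 0.04) and XY (-0.22, SE 0.05) and at Potri.011G068600 in XY (-0.33, SE 0.07). The call in BA was lost in 1 of 17 alternatives (adjusted p = 0.0502). The phosphatase gene *PLL1* Potri.003G089500 was higher in BA, from 7.80 ± 1.10 to 12.3 ± 1.0 CPM (0.68, SE 0.14, adjusted p = 0.0068).

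Of the transcription factors, *WOX4* Potri.014G025300, the cambium target of TDIF in Arabidopsis, was higher in XY, from 67.5 ± 3.3 to 86.2 ± 3.3 CPM (0.33, SE 0.07, adjusted p = 0.00352). The second *WOX4* copy, Potri.002G124100, was lower in PS (-0.34, SE 0.10, adjusted p = 0.0311) and lost that call in 6 of 17 alternatives (adjusted p up to 0.129). *WOX13* Potri.002G008800 was lower in BA (-0.60, SE 0.08) and XY (-0.40, SE 0.05). *HB8* Potri.018G045100, a regulator of early xylem, was lower in XY (-0.33, SE 0.07). Different *HAM3* copies were lower in PS (Potri.003G110800, -0.40, SE 0.09), higher in BA (Potri.001G122800, 0.25, SE 0.07) and lower in XY (Potri.014G060200, -0.56, SE 0.13), and lost their calls in 1, 9 and 2 of 17 alternatives.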

How the data were processed

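RNA-seq was done on 18 libraries. Per the study's methods, the authors used HISAT2 2.0.4 and the genome of P. trichocarpa (build 444, version 3.1), counted fragments per gene with StringTie 1.3.0 and deposited 1 table of whole-number fragment counts and FPKM. Reads of the hybrid 84K were thus counted on another species' gene models. Strand and the handling of reads with several matches are not given in the sources used here.

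Counts were tested with edgeR 4.0.16 (R 4.3.3): filterByExpr (minimum count 10), TMM, robust quasi-likelihood tests, and Benjamini-Hochberg adjustment over all genes tested. Genotypes were compared within a domain (6 libraries), domains within 84K (9 libraries), and interactions over 18 libraries. Intervals are 95%. CPM were scaled by TMM over 18 libraries, except family sums, which use library totals. Deposited FPKM served for levels between genes and for limma 3.58.1 on log2(FPKM + 0.1) or log2(FPKM + 1). DESeq2 1.42.0, other scalings and filters, a replicate block, replicate 3 as a batch and leaving out libraries were alternatives. The tests were checked on simulated data.

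The members and lists were chosen with earlier results of these data known. Full values are given for members called for genotype or an interaction and for the 3 highest by FPKM in each domain of 84K, and pathway genes are named if called for genotype, at most 4 for each role and domain. Lists match Arabidopsis symbols, and 24 pathway and 8 marker genes of other families with the same symbols were left out. Marker lists were secondary wall xylem, phloem, epidermis and cuticle, cambium and shoot apex. Those of epidermis and cuticle summed to 138 to 143 CPM in PS and 2.32 to 2.60 CPM in BA of 84K, and those of the shoot apex to 92.3 to 101 and 122 to 126 CPM.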

Additional observations from a re-analysis of the deposited data

Results flagged for a closer look

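*CLE45* Potri.008G086100 is given here because its genotype effect differed between 2 domains by the test of the difference itself. The effect in BA minus that in PS was -1.69 on the log2 scale (SE 0.45, edgeR adjusted p = 0.0179). In BA all 3 *PagDET2*-OE libraries were lower than 84K (-0.97), and in PS 2 of 3 were higher than 84K (0.71, not called). The gene had 15 to 38 counts per library in PS and 25 to 97 in BA. The second copy, *CLE45* Potri.010G169300, had an effect in BA minus PS of -0.16 (95% CI -0.87 to 0.56).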

How the results depend on the processing

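Alternatives were followed in full for the called effects and for counts of calls. For members that missed the threshold, only calls gained in an alternative were recorded. None of these called effects turned its direction. Of 31 domain differences of single members, 29 stayed called in every alternative in which they were tested. Of 33 genotype effects of single genes, 14 did. Members called for genotype in PS numbered 0 to 1 on leaving out 1 library, 1 to 3 in BA and 2 in XY. With limma, 1 member was called in BA under either pseudocount, and at a minimum count of 30, 1 in XY. With no filter on low counts, 17 members differed between PS and XY instead of 11. For the effect in BA minus PS, limma on log2(FPKM + 0.1) called 0, and leaving out 1 replicate of every group called 0 to 2. For XY minus BA, limma on log2(FPKM + 1) called 1 (*CLE20*, which had 0 counts in BA) and leaving out a replicate 0 to 1. For XY minus PS these were 2 and 0 to 2.

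The labels do not say whether replicate numbers pair the samples, and the main fits held no replicate block. Correlations of deviations between genotypes were weak for equal numbers, from 0.005 to 0.145. Those of replicate 3 (0.145 in PS, 0.128 in BA and 0.047 in XY) were above the highest for unequal numbers (0.076, 0.033 and 0.022). The cause was not tested. In BA 6 of 6 libraries correlated best with their own number, in PS 2 and in XY 4. With a replicate block, 2 members were called for BA minus PS instead of 1, *CLE25* (adjusted p = 0.0441) in addition to *CLE45*. The block left the counts of members called for genotype at 0, 3 and 2.

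Over all genes, calls for genotype were 3590 in PS, 2728 in BA and 4122 in XY. DESeq2 called 2075, 1818 and 2711. The block called 5491 in PS and 4348 in BA, and replicate 3 as a batch 5992 and 5264. Leaving out 1 library gave 2106 to 3606 in PS and 1435 to 2817 in BA. Interactions without 1 replicate of every group numbered 420 to 3964 for BA minus PS (2384 with all). For XY minus BA they numbered 1151 to 4879 (3428), and for XY minus PS 614 to 4312 (2606). The share of higher calls was 51.8% in XY and 39.0% with limma. It was 46.8% for XY against BA and 22.8% with limma, 53.5% for PS against XY and 73.8%, 51.8% for XY minus BA and 31.6% (41.3% with upper-quartile scaling, 40.8% without replicate 2), and 50.5% for XY minus PS and 35.9%. The causes were not tested. Depth limits the 12 members counted but too low for the domain tests, and 0 counts allow up to 0.479 CPM in a library on the TMM scale.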

Other observations

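A *WUS* copy, Potri.005G114700, whose Arabidopsis namesake marks the shoot organizing centre and is repressed by CLV3, was counted in XY at 9.85 ± 1.51 CPM in 84K and 8.23 ± 1.0 CPM in *PagDET2*-OE (SD, n = 3). It had 0 counts in all 6 PS libraries. The *WOX4* copies had their highest level in BA of 84K. Potri.014G025300 was at 64.7 ± 4.6 CPM in PS, 168 ± 2 CPM in BA and 67.5 ± 3.3 CPM in XY, and both differences from BA passed the test. The order of Potri.002G124100 was alike, with log2 differences from BA of -0.83 (SE 0.09) in PS and -0.65 (SE 0.09) in XY. *WOX13* Potri.002G008800 had the other order, and was higher in XY than in BA by 3.08 (SE 0.07). The *WUS* gene was chosen after its values were seen.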
